A study of Homo sapiens with 8 samples.

Results

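Interferon-stimulated genes are the genes that a cell switches on when it senses interferon, the secreted alarm signal of viral infection. Here 9 of them were followed by name, out of 58735 genes in the table: ISG15, IFI6, IFI27, IFIT1, IFIT3, OAS3, STAT2, IRF7 and IRF9, each with 1 row. The recipient cells were Caco-2, a human colorectal carcinoma line that stands for intestinal epithelium in the series, grown in medium with 18% fetal bovine serum. One group received exosomes of M2 macrophages (M2-exo, small vesicles that the labels trace to the monocytic line THP-1; 3 libraries, called treated), and the other received buffer (PBS; 3 libraries, called untreated). All libraries are labelled wild type and, as cell type, stem cells, while the line itself is a carcinoma line; the sources used here give no dose or duration, and nothing tells whether replicates were separate cultures. The p-values therefore weigh differences against the variation among these libraries alone, which may be technical. The microRNA libraries of the exosomes, 1 each of M0-exo and M2-exo, were not used here.

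In textbook terms, type I and type III interferons bind receptors at the cell surface and activate the kinases JAK1 and TYK2. These phosphorylate STAT proteins, and STAT2 joins IRF9 in the factor ISGF3. ISGF3 binds a short promoter element, the interferon-stimulated response element (ISRE), and so raises a programme of antiviral genes. Among the 9 genes are subunits of that factor (STAT2, IRF9), an amplifier of interferon production (IRF7) and the antiviral effectors (ISG15, IFI6, IFI27, IFIT1, IFIT3, OAS3). Intestinal epithelium is known to respond to type III interferon in particular.

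The promoters show what the 6 effectors share beyond their name. RefSeq promoter sequences of the build GRCh38.p14 covered 8 of the 9 genes: ISG15, IFI6, IFI27, IFIT1, IFIT3, OAS3, STAT2 and IRF9. The core letters of the element, GAAA followed by any 2 bases and a second GAAA, were searched on both strands from 250 bases before to 50 bases after each start. On the other strand the same letters read TTTC, 2 bases, TTTC, and overlapping matches were counted. Of the 8 genes, 6 held at least 2 matches, the effectors ISG15, IFI6, IFI27, IFIT1, IFIT3 and OAS3, and the subunit genes STAT2 and IRF9 held none in this window. Of all 35116 promoters of the same length, 3.57% held at least 1 match and 0.259% at least 2. Counted per gene, at least 1 match was also held by 19 of 28 further antiviral interferon-stimulated genes with an entry. It was 7 of 10 for antigen presentation, 7 of 9 for interferon-gamma responsive genes and 5 of 18 for interferon ligands. For ISG15 conjugation it was 1 of 2, for nucleic acid sensing 2 of 10 and for feedback inhibitors 1 of 5. It was 0 of 8 for receptors and kinases and 0 of 4 for other STAT and IRF genes. The letters are thus not particular to the 9 genes. A match is a description of letters, not of binding. The 250 bases before the start are given below for 5 effectors, because at least 2 matches are what they have in common. They read 5′ to 3′ in the direction of the gene, with the matches in capitals.
ISG15 (chr1:1013247-1013496, plus strand): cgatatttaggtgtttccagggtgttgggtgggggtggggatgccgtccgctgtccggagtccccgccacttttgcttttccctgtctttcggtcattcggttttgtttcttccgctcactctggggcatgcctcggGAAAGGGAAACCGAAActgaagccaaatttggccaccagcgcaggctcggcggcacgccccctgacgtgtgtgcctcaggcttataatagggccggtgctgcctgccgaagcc
IFI6 (chr1:27672193-27672442, minus strand): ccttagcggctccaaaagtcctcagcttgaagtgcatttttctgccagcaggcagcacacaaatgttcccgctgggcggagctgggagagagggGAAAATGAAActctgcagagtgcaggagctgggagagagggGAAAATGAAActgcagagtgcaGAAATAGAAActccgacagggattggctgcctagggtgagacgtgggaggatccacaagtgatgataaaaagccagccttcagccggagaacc
IFI27 (chr14:94110486-94110735, plus strand): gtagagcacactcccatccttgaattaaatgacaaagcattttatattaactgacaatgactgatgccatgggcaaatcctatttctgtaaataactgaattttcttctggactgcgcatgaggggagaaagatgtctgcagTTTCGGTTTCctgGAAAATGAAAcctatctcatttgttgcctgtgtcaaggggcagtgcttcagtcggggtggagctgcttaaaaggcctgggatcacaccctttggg
IFIT1 (chr10:89392373-89392622, plus strand): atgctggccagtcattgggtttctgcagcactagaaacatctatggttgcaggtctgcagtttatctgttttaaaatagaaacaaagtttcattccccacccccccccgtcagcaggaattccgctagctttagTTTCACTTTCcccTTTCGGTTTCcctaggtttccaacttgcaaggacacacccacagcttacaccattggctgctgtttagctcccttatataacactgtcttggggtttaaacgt
OAS3 (chr12:112938224-112938473, plus strand): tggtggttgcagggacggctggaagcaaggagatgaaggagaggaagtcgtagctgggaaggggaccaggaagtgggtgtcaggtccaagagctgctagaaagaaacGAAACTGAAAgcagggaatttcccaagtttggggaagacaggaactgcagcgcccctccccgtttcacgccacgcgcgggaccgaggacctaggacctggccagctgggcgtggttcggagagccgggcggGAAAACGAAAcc

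Positions count back from the base at the start. In ISG15 both matches overlap and lie between -113 and -98. IFI6 has 3 of them between -156 and -84. IFI27 carries a pair between -108 and -86, facing in opposite directions, and IFIT1 a pair between -116 and -94. IFI27 is listed with 2 starts, and from the other start the same pair lies between -187 and -165. OAS3 has 1 match that begins at -143 and another at -12. IFIT3, also listed with 2 starts, has a pair before each of them.

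The comparison asked whether these genes differed in cells given M2-exo. None did by the test used. Of the 9 genes, 8 had enough counts to be tested, and edgeR's quasi-likelihood test with Benjamini-Hochberg adjustment over all 15084 genes tested called 0 of them, with an adjusted p of 0.9999 for each of the 8 (3 libraries a group). In the whole table it called 0 genes higher, 0 lower, or 0% in either direction. At an unadjusted p under 0.05 the same test gave 0 of the 8 genes and 111 of all genes (0.736%). DESeq2 and limma-voom also called 0 of all genes (0%). At an unadjusted p under 0.05 DESeq2, run without a filter on low counts, gave none of the 9 genes and 0.422% of 29413 genes. At the same limit limma-voom gave none of the 8 and 0.689% of 15084 genes. The DESeq2 share is thus over a wider set of genes than those of edgeR and limma-voom. These shares, and that of edgeR, lie below the fraction of 0.05 that evenly spread p-values would give. The p-values may thus be too large here, and the reason was not tested. Of the 8 genes 6 had a log2 fold change (treated over untreated) above 0 and 2 below, with a median of 0.082 (-0.018 without treated 1 and 0.39 without untreated 3). Of all genes 47.1% were above and 52.9% below, with a median of -0.0099. A fold change whose 95% interval stayed within 2-fold in both directions was found for 6 of the 8 (75.8% of all genes). Those 6 were ISG15, IFI6, IFIT3, OAS3, STAT2 and IRF7.

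**Figure D1:**
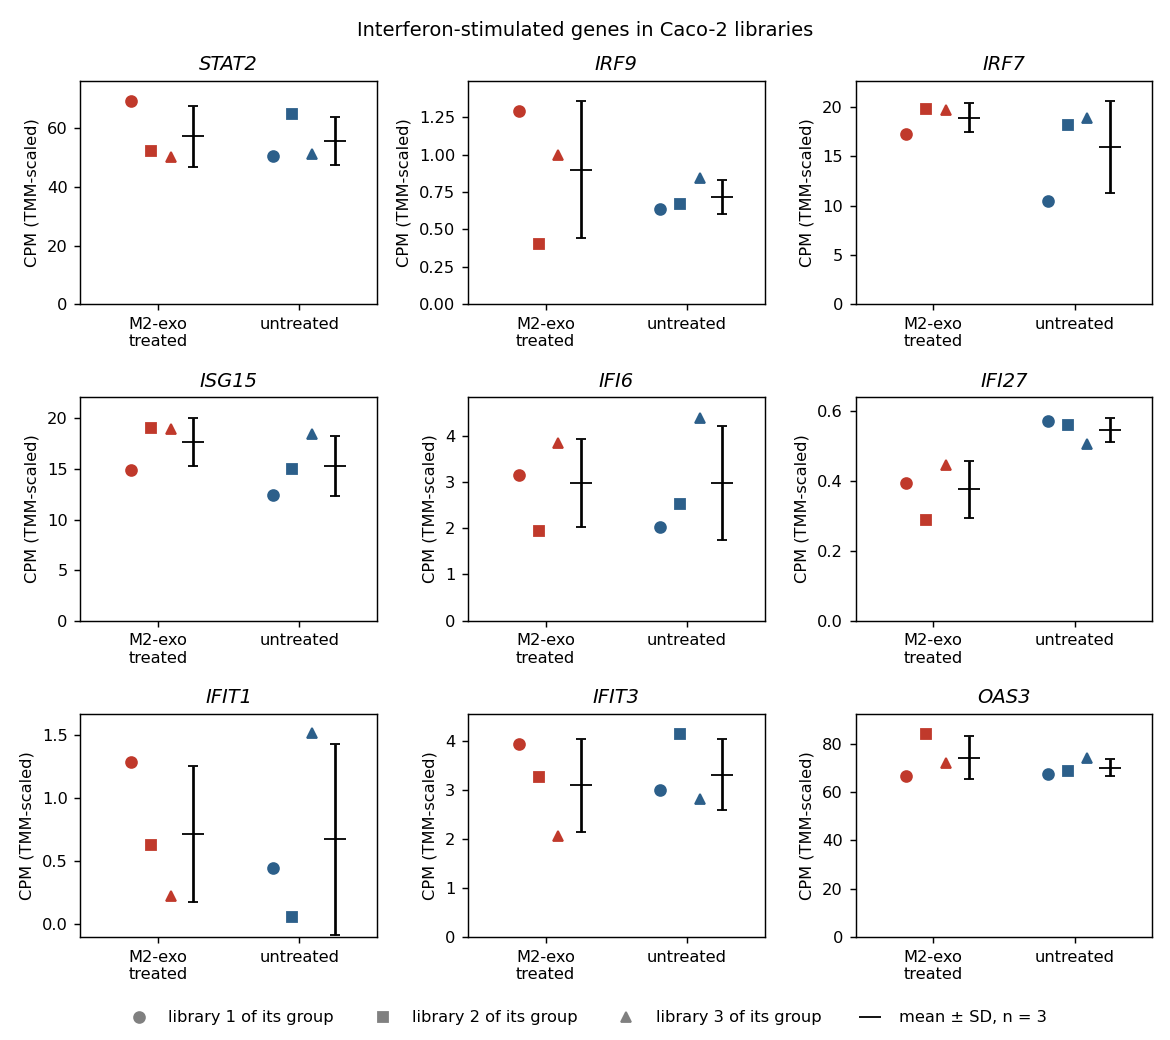
CPM (counts scaled to library size with TMM factors) of the 9 genes in each library, M2-exo treated on the left of each panel and untreated on the right; marker shapes give the replicate number and bars the mean ± SD of 3 libraries. Treated and untreated values overlap in every panel except IFI27, which has 5 to 10 counts per library.

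Library totals were 17408745 to 18184325 counts in treated and 15608937 to 18324599 in untreated cells. Genes on the mitochondrial chromosome took 7.49% to 8.11% of counts in treated libraries, and 4.16%, 7.48% and 7.01% in untreated 1, 2 and 3. Untreated 1 thus had the smallest total and the lowest mitochondrial share. On the first principal component of log2 CPM, with 50.1% of the variance, untreated 1, 2 and 3 lay at -56, 0.479 and 43.2. Treated 1, 2 and 3 lay inside that range at -13.4, 1.89 and 23.8, in the same order of replicate number. The epithelial identity of the cells was read from fixed markers: EPCAM averaged 850 CPM over the 6 libraries, CDH1 (E-cadherin) 1103 and VIL1 (villin) 561, while KRT20 (12 counts in all 6 libraries together), LGALS4 (19) and CDX1 (2) were near 0.

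STAT2 and IRF9 encode the subunits that make ISGF3 distinct from other STAT complexes. STAT2 (ENSG00000170581; GRCh38 chromosome 12, 56341597 to 56360155) had 69.0, 52.1 and 50.2 CPM in treated 1, 2 and 3, against 50.5, 64.8 and 51.1 CPM in untreated 1, 2 and 3. One library in each group stood high, treated 1 and untreated 2, and the groups overlapped. The mean was 57.1 ± 10.4 CPM in treated and 55.5 ± 8.11 CPM in untreated cells (SD, n = 3 each). This is a log2 fold change of 0.041 (SE 0.18, 95% interval -0.37 to 0.45, edgeR adjusted p = 0.9999). Without treated 1 the sign turned (-0.099), as it did without untreated 1 (-0.017) or untreated 3 (-0.0039).

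IRF9 (ENSG00000213928; chromosome 14, 24161053 to 24166565), the subunit that reads the DNA element, was counted far more thinly, at 23, 7 and 18 counts in treated 1, 2 and 3, against 10, 12 and 15 counts in untreated 1, 2 and 3. Treated 2 was the lowest of all 6 libraries and treated 1 the highest, so treated cells spanned the untreated range. Its log2 fold change was 0.32 (SE 0.49, interval -0.79 to 1.44), and -0.011 without treated 1. In the gene table the whole span of IRF9 lies inside a second protein-coding gene on the same strand, AL136295.5 (ENSG00000259529; chromosome 14, 24151218 to 24167402), which had 34 counts in all 6 libraries together. The sources used here do not give how reads that fit both genes were counted, so the IRF9 level is uncertain and the part of that overlap in it was not tested. In FPKM, which scales counts by gene length and library size, the level of STAT2 was 31.1 to 80.6 times that of IRF9 within the same library.

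IRF7, the factor that drives interferon-alpha genes and is itself induced by ISGF3, had 17.2, 19.8 and 19.7 CPM in treated 1, 2 and 3, against 10.5, 18.2 and 18.9 CPM in untreated 1, 2 and 3. Only untreated 1 stood apart, below all other libraries. The means of IRF7 (ENSG00000185507; chromosome 11, 612553 to 615999) were 18.9 ± 1.46 CPM in treated and 15.9 ± 4.65 CPM in untreated cells, with a log2 fold change of 0.25 (SE 0.24, interval -0.30 to 0.79). It was 0.033 without untreated 1, the library with the low total and the low mitochondrial share.

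ISG15, a ubiquitin-like protein that is attached to other proteins, had 14.9, 19.1 and 19.0 CPM in treated 1, 2 and 3, against 12.4, 15.0 and 18.5 CPM in untreated 1, 2 and 3. The lowest value was again that of untreated 1, and the groups overlapped. ISG15 (ENSG00000187608; chromosome 1, 1001138 to 1014540) averaged 17.7 ± 2.38 CPM in treated and 15.3 ± 3.01 CPM in untreated cells, a log2 fold change of 0.21 (SE 0.21, interval -0.27 to 0.68). Without untreated 1 it was 0.087, and without untreated 3 it was 0.38. The part of the shallow library in the values of ISG15 and IRF7 was not tested beyond these fits without it. Of the enzymes that attach or remove ISG15, UBE2L6, the conjugating enzyme, had a log2 fold change of -0.23, HERC5, the ligase, of -0.0026 and USP18, the protease that removes ISG15, of 0.046. UBA7, the activating enzyme, had 0, 1 and 4 counts in treated and 5, 7 and 2 counts in untreated libraries, too few to test.

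OAS3, which senses double-stranded RNA and makes the messenger that activates RNase L, was the best counted of the 9, with 7556 counts in all. It had 66.6, 84.1 and 72.2 CPM in treated 1, 2 and 3, against 67.5, 68.6 and 74.3 CPM in untreated 1, 2 and 3. Only treated 2 exceeded the untreated range, and treated 1 lay just below it. Its means (ENSG00000111331; chromosome 12, 112938352 to 112973249) were 74.3 ± 8.93 CPM in treated and 70.2 ± 3.65 CPM in untreated cells, a log2 fold change of 0.083 (SE 0.15, interval -0.25 to 0.42) that was -0.015 without treated 2. This is the tightest interval of the 8 tested genes, which puts the OAS3 fold between 0.841 and 1.33.

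IFIT1 and IFIT3 lie on chromosome 10 (89392546 to 89406486 and 89327894 to 89340971) and encode partner proteins, of which IFIT1 binds foreign RNA ends and IFIT3 stabilises it. IFIT3 (ENSG00000119917) had 3.94, 3.27 and 2.06 CPM in treated 1, 2 and 3, against 2.99, 4.14 and 2.81 CPM in untreated 1, 2 and 3. The lowest library was treated 3 and the highest untreated 2, with overlap between the groups; the log2 fold change was -0.10 (SE 0.32, interval -0.82 to 0.62), and 0.13 without treated 3 or 0.11 without untreated 2. IFIT1 (ENSG00000185745) had 23, 11 and 4 counts in treated 1, 2 and 3, against 7, 1 and 27 counts in untreated 1, 2 and 3. Its highest and lowest libraries were thus both untreated, 27.2-fold apart in CPM, though the lowest rests on 1 count. Its log2 fold change was 0.081 (SE 0.89, interval -1.93 to 2.09), an interval that holds a 4.26-fold higher as well as a 0.262-fold level. With each library left out in turn it ran from -0.64 (without treated 1) to 1.55 (without untreated 3), and was -0.13 without untreated 1 and -0.45 without untreated 2. The long gene LIPA, on the other strand, spans both IFIT genes and had 11460 counts in all, and the sources used here do not give whether reads were assigned by strand. Its part in the IFIT values was not tested.

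IFI6 and IFI27 belong to one family of small, hydrophobic membrane proteins. IFI6 (ENSG00000126709; chromosome 1, 27666061 to 27672218), which limits cell death and viral replication, had 3.15, 1.95 and 3.85 CPM in treated 1, 2 and 3, against 2.03, 2.52 and 4.39 CPM in untreated 1, 2 and 3. Each group held low and high libraries, and the means were 2.98 ± 0.958 CPM in treated and 2.98 ± 1.24 CPM in untreated cells. Its log2 fold change was -0.00073 (SE 0.38, interval -0.85 to 0.85), and it was 0.40 without untreated 3 and 0.23 without treated 2. Its lowest value with a library left out was -0.21. IFI27 (ENSG00000165949; chromosome 14, 94104836 to 94116698) had 7, 5 and 8 counts in treated 1, 2 and 3, against 9, 10 and 9 counts in untreated 1, 2 and 3, and did not pass the filter on low counts. These groups did not overlap, with every treated value lower. Among the 8 tested genes 0 had groups without overlap, against 1.65% of all tested genes higher and 2.3% lower (3.95% in either direction). Without the filter, IFI27 had a log2 fold change of -0.51 (SE 0.71, interval -1.91 to 0.88, edgeR adjusted p = 1.0000), and its libraries varied less within a group than counting error alone would give (0.173 times that variance).

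**Figure D2:**
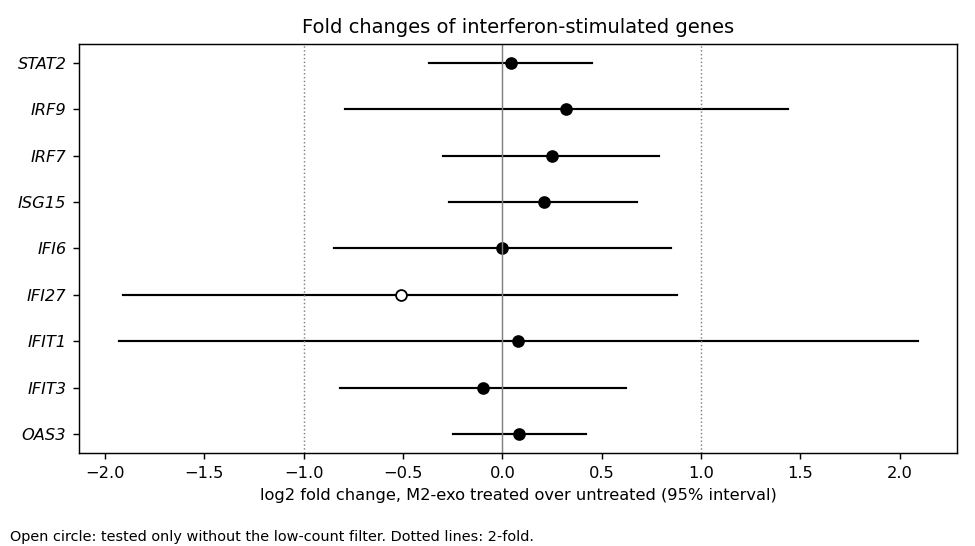
log2 fold change (treated over untreated) of the 9 genes with its 95% interval on the horizontal axis; filled circles are genes tested with the low-count filter, the open circle is IFI27 without it. All intervals include 0, and those of IFIT1, IRF9 and IFI27 also reach beyond 2-fold (dotted lines).

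The order of levels was read per gene length, from the FPKM values deposited by the authors, over all 6 libraries. ISG15 was highest at 17.4 ± 2.93 FPKM (SD, n = 6 libraries of both groups). STAT2 (9.14 ± 1.37 FPKM) and OAS3 (8.68 ± 0.81) came next and did not differ beyond their spread, with STAT2 above OAS3 in 3 of 6 libraries. IRF7 followed at 6.57 ± 1.33 FPKM and IFI6 at 3.41 ± 1.13; their ranges overlapped, although IRF7 was above IFI6 in 6 of 6 libraries. IFIT3 stood at 1.2 ± 0.29 FPKM, clear of both neighbours. The last were IRF9 (0.211 ± 0.0814 FPKM), IFIT1 (0.149 ± 0.126) and IFI27 (0.110 ± 0.0258), whose ranges overlapped. Of 12533 protein-coding genes tested, 78.7% had a lower mean FPKM than ISG15, 62.0% lower than STAT2 and 4.11% lower than IRF9. The table divides by the length of the whole gene model, 941 bases for ISG15 and 4147 for IFI27, so the order depends on the annotation.

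**Figure D3:**
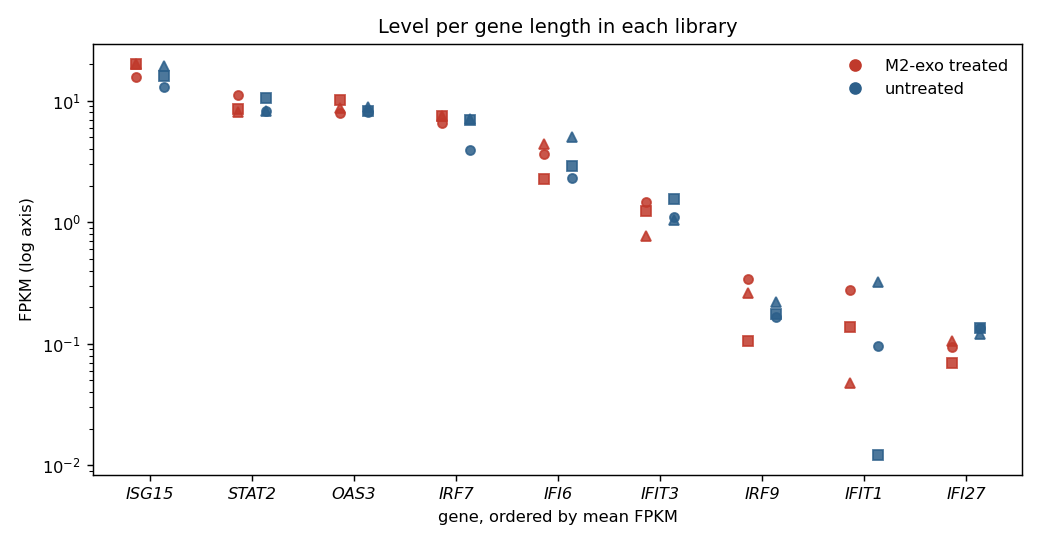
FPKM of the 9 genes on a log axis, ordered by mean level; red marks are M2-exo treated libraries, blue marks untreated ones, 3 each, with shapes for the replicate number as circle 1, square 2 and triangle 3. Levels run from about 20.2 FPKM for ISG15 to 0.0121 for IFIT1 in untreated 2, and within a gene the 2 colours overlap except for IFI27.

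Across libraries the 9 genes did not share 1 profile. In log2 CPM centred on each gene's mean, ISG15 was nearest to OAS3 and IRF7 nearest to ISG15 (root mean square difference 0.16 in both cases). Treated 2 was the highest library for ISG15, IRF7 and OAS3 and the lowest for IFI6, IRF9 and IFI27. STAT2 and IFIT3 formed another pair (0.20), both highest in treated 1 and untreated 2. IFI6 and IRF9 were nearest to each other at 0.33, and IFIT1 was far from all (1.08 from IFI6). No library was highest in more than 3 of the 9 genes or lowest in more than 3. Averaged over the 8 tested genes, the centred values were 0.30, -0.05 and -0.05 in treated 1, 2 and 3 and -0.28, -0.21 and 0.28 in untreated 1, 2 and 3. IFIT1, with 73 counts in all, had the widest values in this average. They were 1.19, 0.27 and -0.87 in treated 1, 2 and 3 and -0.14, -1.85 and 1.40 in untreated 1, 2 and 3. The -1.85 rests on 1 count. The average, and any likeness to it, thus leans on a thinly counted gene. The genes outside the fixed lists whose centred values came nearest to that average, among 10824 with a mean of at least 5 CPM, were DRD2 (root mean square difference 0.073), KIAA0895L (0.077) and RGP1 (0.077), a likeness over 6 libraries only.

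**Figure D4:**
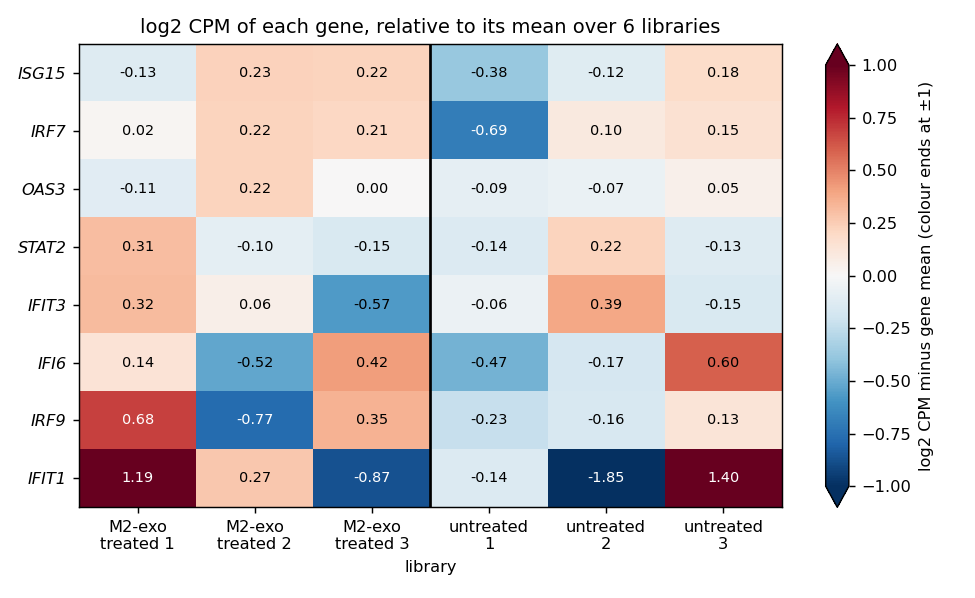
Heat map of log2 CPM minus each gene's mean over the 6 libraries, for the 8 tested genes (rows) in the treated (left of the line) and untreated libraries (right); numbers are the plotted values and the colour scale ends at ±1. Untreated 1 is lowest for ISG15 (-0.38) and IRF7 (-0.69), and treated 1 and untreated 2 are highest for STAT2 (0.31 and 0.22) and IFIT3 (0.32 and 0.39).

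For the better counted genes the spread within groups was larger than counting error. The within-group variance was 27.1 times that of counting for STAT2, 12 times for IRF7, 11 times for OAS3 and 7.79 times for ISG15. It was 11.1 times for IFIT1, despite its 73 counts in all, and 2.16 times for IRF9 with 85 counts. The coefficient of variation of IRF7 was 7.71% in treated and 29.2% in untreated cells, and that of OAS3 was 12% in treated and 5.2% in untreated cells. Summed over the 9 genes, the libraries held 178, 182 and 169 CPM in treated 1, 2 and 3 and 148, 175 and 173 CPM in untreated 1, 2 and 3, a sum made mostly of OAS3 and STAT2. Here too untreated 1 was the lowest, and in these bulk samples fewer expressing cells and less RNA per cell cannot be told apart.

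Upstream of the 9 genes, the ligands were almost unread. Of 22 interferon genes, 20 had 0 counts in every library, among them IFNB1, IFNG and IFNL1, where 3 counts, the limit that a count of 0 allows, correspond to 0.165 to 0.172 CPM of the library total in treated and 0.164 to 0.192 CPM in untreated libraries (counting error only). IFNE, an epithelial interferon, had 0, 5 and 3 counts in treated and 4, 1 and 7 in untreated libraries, and IFNL2 had 2, 2 and 1 in treated and 0, 0 and 1 in untreated ones. The receptor genes were counted at unequal levels. IFNAR1, a chain of the type I receptor, averaged 48.9 CPM over the 6 libraries and its partner IFNAR2 1.61 CPM. IFNLR1, the chain specific to type III interferon, averaged 13.1 CPM. The log2 fold changes were -0.042 for IFNAR1, -0.33 for IFNAR2 and 0.14 for IFNLR1. IL10RB, which IFNLR1 pairs with, had 1, 11 and 5 counts in treated and 5, 1 and 4 in untreated libraries, too few to test. For IFNAR2 and for IFNE, another gene on the same strand spans the whole gene, and 1 same-strand gene overlaps IL10RB. As for IRF9, the handling of shared reads is not given, so the levels of IFNAR2, IFNE and IL10RB are uncertain. The part of these overlaps was not tested. IFNGR2, of the interferon-gamma receptor, was higher in every treated library, as were 1.65% of all tested genes. It had 629, 658 and 682 counts in treated against 483, 593 and 565 counts in untreated cells, but did not pass (log2 fold change 0.22, SE 0.15, edgeR adjusted p = 0.9999). The kinases JAK1 and TYK2 had log2 fold changes of 0.042 and 0.09. None of the 8 tested of 9 receptor and kinase genes passed, and their median log2 fold change was 0.063.

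Among genes that sense foreign nucleic acid, 10 of 14 were tested and 0 passed in either direction (median log2 fold change 0.10). IKBKE, a kinase that activates IRF3 and IRF7, was higher in every treated library, as were 1.65% of all tested genes. It had 367, 347 and 351 counts in treated against 199, 268 and 332 counts in untreated cells, a log2 fold change of 0.38 (SE 0.20) that did not pass. The adaptor gene TICAM1 stood at 0.31, the RNA sensors RIGI and IFIH1 at -0.17 each, and the kinase TBK1 at -0.11. TLR3, at under 1 CPM, had 0.77 (SE 0.59). STING1 and ZBP1, named after their values were seen, had 0 counts in every library, and IFI16 had 6 in all. The other IRF and STAT genes gave 0 called of 8, from -0.13 for STAT3 to 0.46 for IRF5 (median -0.014), with IRF8 at 0.24, IRF1 at 0.15, IRF2 at -0.052 and IRF3 at -0.037.

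Of 36 further antiviral interferon-stimulated genes, 21 were tested, 0 passed in either direction and the median log2 fold change was -0.015. They ranged from -0.39 (MX2, under 1 CPM) to 0.22 (SP100); IFI35 and ISG20 stood at -0.33 and -0.31, IFIT5, a relative of IFIT1, at -0.28, and LGALS3BP and TRIM21 at 0.12 each. Their baseline levels were very unequal. BST2 (tetherin, which holds budding viruses at the membrane) averaged 103 FPKM over the 6 libraries and the RNA-editing enzyme gene ADAR 47.8, both above ISG15. RSAD2, IFI44, IFI44L and XAF1 had 0 counts in every library and MX1, a classic marker of interferon action, 16 in all; these 7 genes were named after their values were seen. The feedback inhibitors gave 0 called of 7 (median 0.05), with SOCS1 at 0.31, SOCS3 at 0.23 and PTPN2 at 0.12. The antigen presentation genes gave 0 called of 11 tested (median -0.10), with HLA-C at -0.23, HLA-B at -0.22 and TAP1 at -0.21. The spans of HLA-B and HLA-C overlap on the same strand, and the part of that overlap in their values was not tested. The interferon-gamma list gave 0 called of 3 tested among 14, with the chemokine gene CXCL10 at -0.44 (50, 43 and 51 counts in treated and 70, 75 and 43 in untreated libraries), CIITA at -0.26 and WARS1 at 0.091. CXCL9, named after its values were seen, had 0 counts in each treated library against 7, 4 and 5 in untreated 1, 2 and 3, and missed the filter. Without the filter, it reached an unadjusted p of 0.00212 with an adjusted p of 1.0000 by edgeR. In that fit 493 of 29414 genes had an unadjusted p under 0.05. Over these lists together, 70 of 126 genes were tested, 34 above and 36 below 0, with a median of -0.0041. Groups without overlap were found for 4 of the 70, IFNGR2, IKBKE, TLR3 and SP100, all higher in treated cells, beside 3.95% of all tested genes in either direction and 1.65% higher, and nothing particular to these lists is read from that count.

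**Figure D5:**
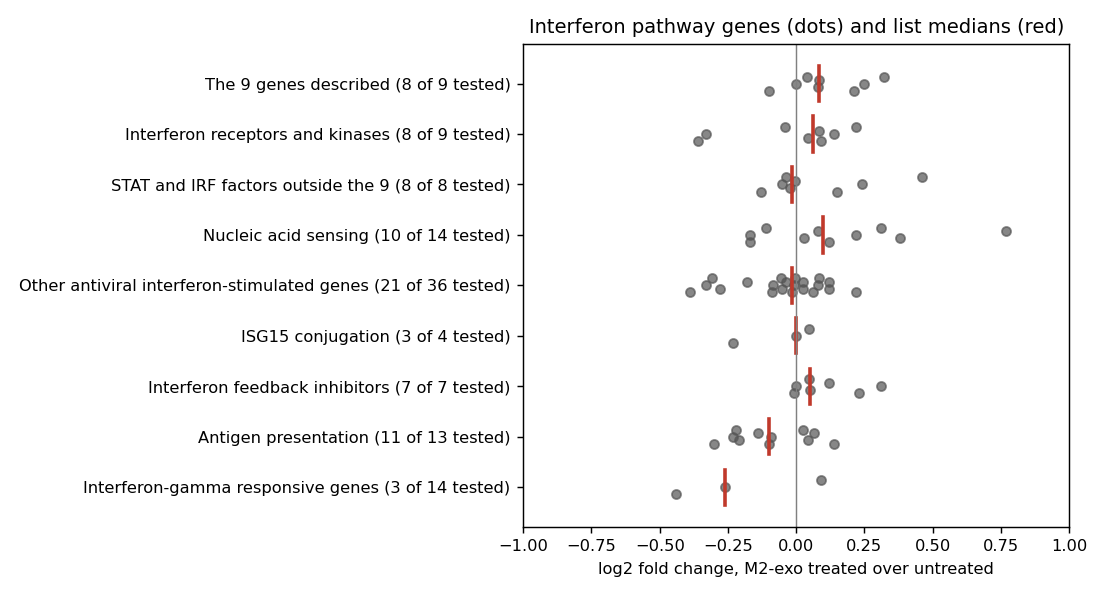
log2 fold change (treated over untreated, horizontal axis) of each tested gene of the interferon pathway lists; each dot is a gene, red bars are list medians, and labels give how many genes were tested. The medians lie between -0.26 and 0.10, and no gene passed the adjusted threshold.

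Markers of other cell types were read because the exosomes came from a macrophage source. Of 14 macrophage markers, CD68, TYROBP, CD33 and LILRB1 had 0 counts in every library and PTPRC (CD45) 1 in all. CD163, ITGAM, MRC1 and SPI1 had between 0 and 6 counts per library. The other 5 were counted in every library and tested, and none passed. Their log2 fold changes were -0.65 for LYZ (SE 0.36), -0.27 for FCER1G (SE 0.42), -0.21 for AIF1 (SE 0.44), -0.13 for CD14 (SE 0.23) and 0.28 for CSF1R (SE 0.37), with mean levels of 0.978 CPM (FCER1G) to 7 CPM (CD14). The 14 summed to 20.1, 13.1 and 16.2 CPM in treated 1, 2 and 3 and to 16.5, 21.3 and 17.1 CPM in untreated 1, 2 and 3, so the groups overlapped. The 8 fibroblast markers summed to 94.5, 70.7 and 82.8 CPM in treated and 69.6, 80.7 and 72.5 CPM in untreated libraries, also with overlap. That sum was mostly PDGFRA and COL1A1, with means of 41 and 28.6 CPM over the 6 libraries. PDGFRB, LUM and COL3A1 averaged 4.43, 2.35 and 2.05 CPM, and COL1A2, DCN and THY1 had 2 counts each in all.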

How the data were processed

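The deposited gene table holds whole-number counts per Ensembl gene, used here for 3 M2-exo treated and 3 untreated Caco-2 libraries. The submitters' processing notes name HISAT2, featureCounts, CASAVA and GRCh38, and the sources used here give no versions, strand setting or rule for shared reads. The FPKM table deposited by the authors equals count over gene length and a constant per library (largest relative deviation 1.01e-07). A total of 6 further Caco-2 columns, 3 of counts and 3 of FPKM, match no sample and were not used. The test on counts was the 2-sided quasi-likelihood F test of edgeR 4.0.16 (R 4.3.3), with TMM factors, filterByExpr on the groups and Benjamini-Hochberg adjustment at 0.05. A standard error is the size of the log2 fold change over the root of F, and intervals are 95%. CPM are TMM-scaled; profiles use log2 CPM with a prior count of 2.

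Alternatives were DESeq2 1.42.0, limma 3.58.1 (voom, or log2(FPKM + 1) and log2(FPKM + 0.1)), other scalings and filters, a replicate block and each library left out. The 9 genes and all lists were chosen with earlier results of these data known. The text names the 9 genes, up to 3 genes of highest and 3 of lowest log2 fold change per list (mean of at least 1 CPM), any receptor, kinase, STAT, IRF or ISG15 conjugation gene, and the 3 nearest profiles. A few listed genes that this rule would name are not reported here.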

Additional observations from a re-analysis of the deposited data

How the results depend on the processing

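No alternative called any of the 9 genes, or any listed pathway gene, among those it tested, and IFI27 was not among the genes of the reported fit. In the whole table, genes called were 6 without a filter on low counts, and 0 to 1 with each library left out (1 without treated 2); none of them was one of the 9. ISG15 and IRF7 kept their direction in all 17 alternatives each, at 0.087 to 0.38 and 0.033 to 0.40. The log2 fold change of IFI6, -0.00073 in the reported fit, turned above 0 with RLE factors or total counts (0.003), DESeq2 (0.0034), without mitochondrial genes (0.01), upper quartile factors (0.011), no filter or a mean of at least 1 CPM (0.013), limma-voom (0.015), the replicate block (0.017), log2(FPKM + 1) (0.019) and log2(FPKM + 0.1) (0.028). With each library left out, it ran from -0.21 to 0.40 for IFI6, -0.64 to 1.55 for IFIT1, -0.29 to 0.13 for IFIT3, -0.015 to 0.18 for OAS3, -0.099 to 0.19 for STAT2 and -0.011 to 0.67 for IRF9. IFIT1 stood at 0.61 by limma-voom, against 0.081 by edgeR, and the causes were not tested. Whether replicate numbers pair the libraries is not known, and the reported fit does not use them. Deviations from the group means correlated at 0.281, -0.065 and 0.481 for the same numbers 1, 2 and 3. For different numbers the values were -0.421 to 0.184. The same-number value was thus the highest for numbers 1 and 3, but not for number 2. With the replicate block edgeR called 0 of the 8 genes tested and 0 of all genes, with 211 of these at an unadjusted p under 0.05. IFIT1, IRF9 and IFI27 had under 100 counts each in all, and the edgeR interval of each reached beyond 2-fold.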
